A study of Mus musculus with 30 samples.

Results

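Female and male germ cells of the E13.5 mouse gonad were compared across the autosomes. The material was 3 arrays of germ cells from female embryos and 3 from male embryos, 6 of the 30 arrays of a study of Polycomb repressive complex 1 (PRC1) in primordial germ cells, from which eggs and sperm descend. Every array compared carried the genotype Ring1+;Rnf2+, called control here, with both PRC1 ubiquitin ligase genes intact. The embryos were of a mixed 129/Sv and C57BL6J background and carried an Oct4(deltaPE)-GFP transgene, in which an element of the Oct4 (Pou5f1) gene drives a green fluorescent protein in germ cells. GFP-positive cells were sorted from trypsin-treated gonads, and each sample was RNA from 500 such cells, copied by whole-transcriptome amplification before labelling, so only cells that still had the reporter were sampled. Control arrays of the same design at E12.5 (3 female, 3 male) and E11.5 (3 female, 3 male) served for the earlier stages. The other 12 arrays were of Ring1+;Rnf2delta germ cells at E11.5 and E12.5. They entered the estimate of the spread, the filter on low signal and the choice of probe set, but none of the compared means. Whether the 3 arrays of one group represent different embryos or litters is not stated in the labels. The p-values therefore rest only on how far these samples scatter, and that scatter may be technical. Of 19105 autosomal genes measured, 14645 passed the filter on low signal, of 15180 tested in all.

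Germ cells reach the gonad with the same programme in both sexes and part ways soon after. In the fetal ovary, bone morphogenetic protein (BMP) and retinoic acid signals bring them to stop dividing as stem-like cells and to enter the long first prophase of meiosis, in which homologous chromosomes are tied together by cohesin and the synaptonemal complex and broken and repaired by recombination. In the fetal testis, supporting cells break down retinoic acid and supply fibroblast growth factor (FGF), Nodal signalling rises inside the germ cells, meiosis is held off and the cells go into cell cycle arrest with the RNA-binding protein NANOS2 as a central male factor.

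The E13.5 arrays were alike within each sex. Each array correlated with the others of its group at a mean r of 0.988 to 0.989 in females and 0.989 to 0.99 in males, with a median SD per gene of 0.149 and 0.144 log2 units. Of 7 Y-linked genes tested, 6 had all male arrays above all female arrays, and the exception was Sry, whose arrays overlapped. Of 10 germ cell markers tested, 3 were higher in females (Kit, Tfap2c and Mael), 2 were lower (Dppa3 and Nanos3) and 5 did not pass, with a median difference of 0.02. The germ cell helicase gene Ddx4 stood at 7.83 ± 0.250 in females and 7.83 ± 0.146 in males (SD, n = 3 each), and the RNA-binding protein gene Dazl at 8.76 ± 0.0277 and 8.72 ± 0.0137 in the same order. Markers of other gonadal cells lay near the lower end of the signal, where the array medians were 2.53 to 2.59. The sum of log2 signals over 10 markers of testis supporting cells was 23.72 to 24.21 on female arrays and 25.64 to 29.85 on male arrays, and 3 of the 10 (Cst9, Ptgds and Amh) were called lower in females. For Amh the arrays overlapped, and 7 of 16 alternatives ended the call (highest adjusted p = 0.26). Sox9, the defining gene of that cell type, stood at 2.56 in females and 2.52 in males. Over 8 markers of ovary supporting cells the sum was 22.23 to 23.48 in females and 21.86 to 22.55 in males, with Bmp2 (3.30 against 2.40) as the only call and Foxl2 at 2.38 against 2.57. None of 25 tested markers of shared supporting, steroidogenic, interstitial, endothelial, erythroid and macrophage cells was called. Fewer cells of a type and less RNA per cell cannot be told apart in such samples.

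At E13.5, 2309 of the 14645 autosomal genes (15.8%) differed between the sexes at an adjusted p under 0.05 in limma's moderated test. Of these, 1060 (7.24% of those tested) were higher in females and 1249 (8.53%) were lower. These shares are the background for the counts of list members below. In the E13.5 results, a rise or fall means a gene higher or lower in females than in males at that stage. It does not mean a change over time. A difference of at least 1 log2 unit was reached by 217 genes higher in females (1.48%) and 258 lower in females (1.76%). The arrays of the sexes did not overlap for 5206 genes (35.5%), which is the background for every statement below that arrays did not overlap. Called genes were picked on these same arrays, so non-overlap among them is no separate support. The median difference over all autosomal genes was 0.0025 log2 units. The call held in each of 16 alternative fits for 506 of the genes higher in females and 658 of those lower.

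**Figure D1:**
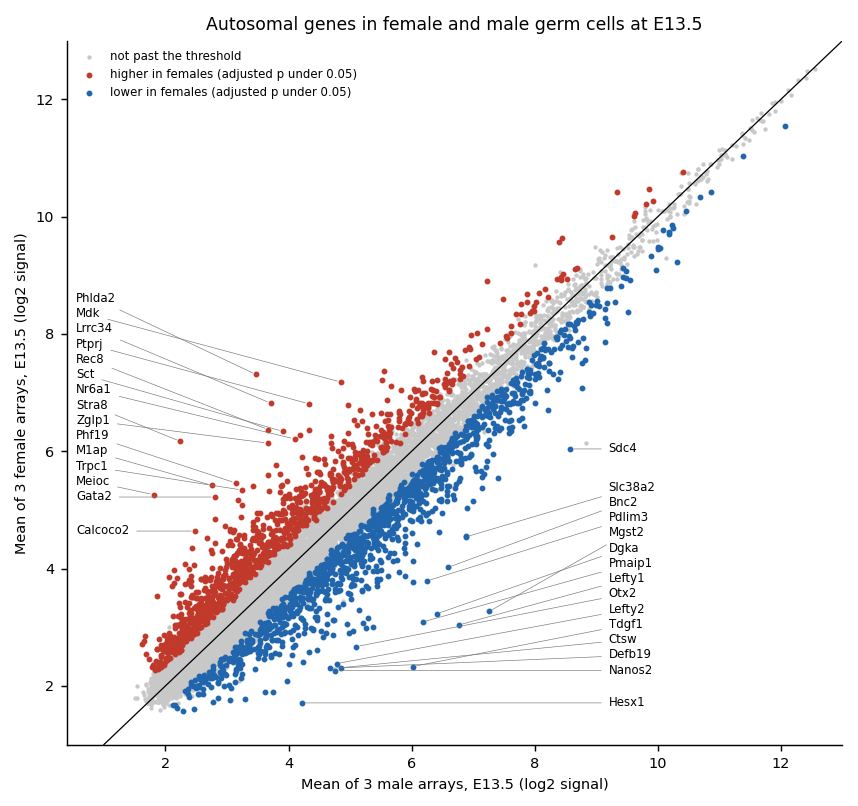
Mean log2 signal of the 3 female arrays (y axis) against the 3 male arrays (x axis) at E13.5 for 14645 autosomal genes. Red marks the 1060 genes higher in females and blue the 1249 lower. The 15 genes each way that were named by size are labelled. Stra8 and Meioc stand farthest above the line of equal signal, with Phlda2, and Mgst2, Lefty1 and Tdgf1 farthest below it.

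The largest measured rise was that of Stra8, the retinoic-acid-induced gene needed to start meiosis. Its log2 signal was 5.69, 7.21 and 5.62 on the female arrays, against 2.34, 2.22 and 2.15 on the male arrays. Female arrays were thus far above male ones, which lay near the 40th percentile of the array (2.23 to 2.28). No detection calls were used here, so where one sex lies that low, as for Stra8 and Nanos2, the measured difference may understate the true one and its rank among genes is uncertain. The difference was 3.93 ± 0.35 log2 units (standard error, SE; adjusted p = 7.7e-09). Meioc, which with its partner Ythdc2 keeps germ cells in meiotic prophase, measured 4.95, 5.67 and 5.16 in females, against 1.90, 1.52 and 2.00 in males. The arrays did not overlap, and the difference was 3.45 ± 0.27 (adjusted p = 7.0e-10). Rec8, the meiotic cohesin subunit, measured 5.88, 6.83 and 6.40 in females, against 3.51, 3.96 and 3.55 in males, a difference of 2.70 ± 0.26 (adjusted p = 2.1e-08). M1ap, a gene needed for meiosis in mouse males, was outside the meiotic lists. It measured 4.98, 6.27 and 5.01 in females, against 2.95, 2.71 and 2.59 in males, a difference of 2.67 ± 0.25 (adjusted p = 1.7e-08). In each of these genes the second female array was the highest of the 6.

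The 5 lists of meiotic genes held 49 different genes that were tested, and 21 of them rose in females. Of 8 genes of meiotic initiation 5 rose, none fell and 3 did not pass, with a median difference of 0.98 log2 units. Besides Stra8 and Meioc, they were Zglp1, Ythdc2 and the RNA-binding gene Rbm46 (6.43 against 5.42, adjusted p = 3.5e-04). Dazl, which licenses germ cells of both sexes for meiosis, did not pass (adjusted p = 0.96). The probe sets gave no single-symbol entry for Meiosin, the partner of Stra8.

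Of 7 synaptonemal complex genes 4 rose, none fell and 3 did not pass (median 0.66). Sycp3, of the axial element, measured 6.58, 7.79 and 7.28 in females, against 5.69, 5.35 and 5.52 in males. The arrays did not overlap, and the difference was 1.69 ± 0.33 (adjusted p = 4.8e-04). Sycp1, of the transverse filament, stood at 5.13 against 4.13 (adjusted p = 0.014) and the central element genes Syce2 at 8.54 against 7.88 (adjusted p = 0.0032) and Tex12 at 4.62 against 3.50 (adjusted p = 0.027). Of 8 genes of the meiotic cohesin and axis 5 rose, none fell and 3 did not pass (median 0.68). After Rec8, the cohesin genes Smc1b and Stag3 differed by 1.35 ± 0.27 (adjusted p = 6.6e-04) and 0.95 ± 0.18 (adjusted p = 2.7e-04), and the axis gene Hormad2 by 0.65 ± 0.17 (adjusted p = 0.0067).

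Recombination genes were less uniform. Of 20 tested, 5 rose, 1 fell and 14 did not pass (median 0.48). Dmc1, the meiotic strand-exchange protein, measured 4.59, 5.46 and 4.80 in females, against 3.68, 3.27 and 3.49 in males, a difference of 1.46 ± 0.25 (adjusted p = 1.0e-04). Brca2, which loads it, stood at 5.29 against 4.27 (adjusted p = 5.7e-05), and the histone-methylation reader Zcwpw1 at 7.72 against 6.86 (adjusted p = 5.4e-04). Spo11, whose protein makes the meiotic breaks, was at 3.25 in females and 3.15 in males and did not pass (adjusted p = 0.80). Mcmdc2, which helps repair those breaks, was the member that fell, with 2.67 against 3.51 (adjusted p = 0.011). Its call ended without the first female array or without the second male array (highest adjusted p = 0.12). Of 6 genes that tie telomeres to the nuclear envelope, Majin (3.07 against 2.25) and Terb2 (4.95 against 4.05) rose, and the kinase gene Cdk2, which also drives S phase, fell (4.87 against 5.73, adjusted p = 0.017). The Cdk2 call ended without the first female, the first male or the third male array (highest adjusted p = 0.092).

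The 3 female arrays differed among themselves in these genes. The second female array was the highest of the female arrays in 16 of the 21 meiotic genes that rose, and the mean log2 signal over the 21 was 5.49, 6.05 and 5.70 on the female arrays, against 4.37, 4.33 and 4.32 on the male arrays. For all 21 the arrays of the sexes did not overlap. The 21 genes were picked by their call on these same arrays, so this adds no support. Leaving out the second female array kept the call for 16 and ended it for 5. Tex12 then differed by 0.74 (adjusted p = 0.23), Spata22 by 0.69 (adjusted p = 0.29), Sycp1 by 0.89 (adjusted p = 0.072), Ythdc2 by 0.84 (adjusted p = 0.074) and Msh4 by 0.52 (adjusted p = 0.10), while Stra8 still differed by 3.41 (adjusted p = 1.0e-07).

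**Figure D2:**
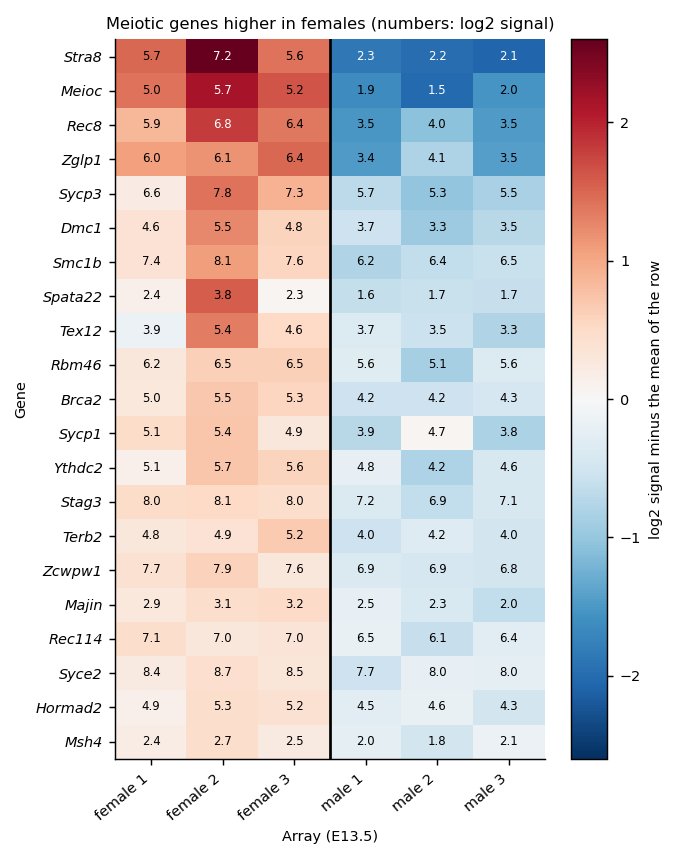
Each row is one of the 21 meiotic genes that rose in females and each column an E13.5 array, with the log2 signal printed and the colour giving its distance from the mean of the row, so colours compare arrays within a gene. All female values lie above all male values in every row, which the choice of called genes favours. Female array 2 has the highest mean over the 21 genes, 6.05.

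The promoters of 5 of these genes are shown because the genes rose together and their upstream sequence differs in the short motifs it holds. They are the 250 bases before the annotated start in RefSeq's promoter table (GRCm38.p6), read in the direction of the gene, with 4 motifs in capitals on either strand. The motifs were CNCCTCAG, known to be bound by STRA8 with MEIOSIN, CACGTG, the E-box bound by MAX with MGA, a PRC1 partner, GCGGGA, bound by E2F factors, and AGGTCA, the nuclear receptor half-site.
Stra8 (chr6:34920698-34920947, plus strand): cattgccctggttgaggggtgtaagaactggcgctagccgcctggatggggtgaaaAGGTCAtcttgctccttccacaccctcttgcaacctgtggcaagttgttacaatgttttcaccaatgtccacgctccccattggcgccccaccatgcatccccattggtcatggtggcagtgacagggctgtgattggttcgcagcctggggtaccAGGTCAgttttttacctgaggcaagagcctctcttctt
Zglp1 (chr9:21067094-21067343, minus strand): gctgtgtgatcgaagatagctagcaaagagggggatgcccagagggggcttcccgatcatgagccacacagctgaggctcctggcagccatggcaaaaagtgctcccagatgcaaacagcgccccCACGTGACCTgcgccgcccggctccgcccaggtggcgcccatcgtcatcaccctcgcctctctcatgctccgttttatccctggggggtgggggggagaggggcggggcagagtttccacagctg
Rec8 (chr14:55617916-55618165, plus strand): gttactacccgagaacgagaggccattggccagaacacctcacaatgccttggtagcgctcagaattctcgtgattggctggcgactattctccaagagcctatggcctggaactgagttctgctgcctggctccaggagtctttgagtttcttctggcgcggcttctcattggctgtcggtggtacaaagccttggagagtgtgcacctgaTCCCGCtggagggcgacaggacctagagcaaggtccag
Sycp3 (chr10:88459337-88459586, plus strand): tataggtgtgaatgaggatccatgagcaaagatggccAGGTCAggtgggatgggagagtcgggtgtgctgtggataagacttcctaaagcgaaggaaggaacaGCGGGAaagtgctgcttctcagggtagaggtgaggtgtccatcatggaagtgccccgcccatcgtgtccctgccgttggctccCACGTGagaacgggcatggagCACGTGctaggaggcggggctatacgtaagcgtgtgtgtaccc
Tex12 (chr9:50561269-50561518, minus strand): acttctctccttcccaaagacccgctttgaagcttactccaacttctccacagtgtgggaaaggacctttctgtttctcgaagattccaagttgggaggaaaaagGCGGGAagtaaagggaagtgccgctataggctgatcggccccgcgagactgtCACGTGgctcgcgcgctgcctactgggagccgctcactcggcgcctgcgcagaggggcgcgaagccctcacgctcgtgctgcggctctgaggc

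The Stra8 window held 2 AGGTCA half-sites, which begin 194 and 38 bases before the start, and none of the other motifs. The Zglp1 window, on the minus strand, held 1 CACGTG at 125 bases, and its AGGTCA half-site overlaps it by 2 bases. Rec8 had a single GCGGGA at 38 bases. Sycp3 held 2 CACGTG at 64 and 43 bases, a GCGGGA at 147 and an AGGTCA at 213. Tex12, on the minus strand, held CACGTG at 93 bases and GCGGGA at 145. For Tex12 a whole CNCCTCAG was found only in a longer window that runs past the start. Over windows of 300 bases that run 50 past the start, 18 of the 21 meiotic genes that rose had an entry, with 20 windows. CACGTG was in 8 of these (40%), GCGGGA in 14 (70%), CNCCTCAG in 5 (25%) and AGGTCA in 3 (15%). Over the 46 windows of all 49 tested meiotic genes, whether or not they rose (40 had an entry), the shares were 23.9% for CACGTG, 58.7% for GCGGGA, 26.1% for CNCCTCAG and 19.6% for AGGTCA, so CNCCTCAG was about as frequent in the whole list as in the genes that rose. All 31396 autosomal windows of the table held them at 7.14%, 20.2%, 7.92% and 16.3%, in the same order. Among all genes higher in females, 873 of 1060 had an entry, and CACGTG was in 8.06% of 1178 windows, against 12.1% of 1271 windows of genes lower in females. GCGGGA was in 39.1% against 34.9%, CNCCTCAG in 10.4% against 8.10% and AGGTCA in 12% against 12.3%. These matches describe letters in the windows, and no binding was measured.

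Of 15 genes of the BMP response tested, 8 rose in females, none fell and 7 did not pass, with a median difference of 0.60. Zglp1, a GATA-like zinc finger gene that BMP induces on the way to oogenesis, measured 5.97, 6.06 and 6.39 in females, against 3.42, 4.10 and 3.46 in males. The difference was 2.48 ± 0.23 (adjusted p = 8.4e-09). Gata2, a transcription factor gene, measured 5.11, 5.16 and 5.41 in females, against 2.63, 2.98 and 2.80 in males, a difference of 2.42 ± 0.18 (adjusted p = 2.7e-10). Both genes were separated by more than 1 log2 unit between the lowest female and the highest male array. The Id genes are direct BMP targets whose proteins block basic helix-loop-helix factors. Id1, Id2 and Id3 rose as well, and Id4 did not pass. Id3 stood at 6.36 against 4.33 (adjusted p = 7.0e-07) and Id1 at 4.44 against 2.81 (adjusted p = 7.2e-06). The inhibitor genes Smad6 (2.80 in females and 2.68 in males) and Smad7 (4.05 and 4.36) did not pass.

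For retinoic acid, 3 of 16 tested genes rose, 1 fell and 12 did not pass (median 0.10). The rises were in the cellular binding proteins and the first step of synthesis. Crabp2 measured 6.37, 6.45 and 5.98 in females, against 3.87, 4.75 and 3.91 in males, a difference of 2.09 ± 0.28 (adjusted p = 4.2e-06). Crabp1 stood at 7.37 against 5.55 (adjusted p = 1.3e-06) and Rdh10, which oxidises retinol, at 5.16 against 4.29 (adjusted p = 1.5e-04). Aldh1a1, which makes retinoic acid from retinal, was the member that fell, with 1.76 against 3.05 (adjusted p = 8.1e-04). Its male values (3.51, 2.39 and 3.25) ran in the order of the testis supporting marker Cst9 (4.24, 3.24 and 3.77). The markers Ptgds and Amh (3.46, 2.24 and 3.83) were also lowest on the second male array but highest on the third. The part of these markers in the Aldh1a1 result was not tested. Cyp26b1, the enzyme by which testis supporting cells degrade retinoic acid, stood at 2.56 in females and 2.52 in males.

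Polycomb genes that were called went both ways, beside 7.24% of all autosomal genes higher and 8.53% lower. Of 20 tested PRC1 genes 5 rose, 2 fell and 13 did not pass (median 0.06). Cbx8, a chromodomain subunit of canonical PRC1, measured 4.20, 4.64 and 4.09 in females, against 2.93, 2.82 and 2.46 in males, a difference of 1.57 ± 0.18 (adjusted p = 3.6e-07). Phc3 (4.42 against 3.21, adjusted p = 5.4e-04) rose and Phc1 (6.13 against 6.98, adjusted p = 6.7e-05) fell, both Polyhomeotic genes, whose products join PRC1 complexes. Pcgf5, a ring finger subunit of variant PRC1, stood at 5.39 against 4.27 (adjusted p = 7.7e-05), and L3mbtl2, of the PRC1 form with MGA and E2F6, at 4.90 against 5.49 (adjusted p = 0.028). The arrays overlapped for L3mbtl2, and 5 of 16 alternatives ended its call (highest adjusted p = 0.17). The catalytic genes did not pass, with Rnf2 at 5.50 in females and 5.64 in males and Ring1 at 3.07 and 3.17 in that order. Of 11 PRC2 genes 1 rose, 2 fell and 8 did not pass (median -0.05). Phf19, a Polycomb-like protein that brings PRC2 to chromatin, measured 5.43, 5.44 and 5.52 in females, against 2.76, 3.44 and 3.22 in males, a difference of 2.32 ± 0.18 (adjusted p = 7.0e-10). Its relative Mtf2 ran the other way, with 7.27 against 8.07 (adjusted p = 0.0014), and the methyltransferase gene Ezh2 did not pass (8.31 against 8.21).

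Imprinted genes are expressed mainly from 1 parental copy in most tissues, and more of them rose than fell in females. Of 21 tested, 8 rose, 1 fell and 12 did not pass (median 0.37). Among the 8 that rose, the call held in every alternative for 4, and it also held for the 1 that fell. Phlda2, a maternally expressed gene that limits placental growth, had the second largest rise of all. It measured 7.47, 7.04 and 7.42 in females, against 3.64, 3.17 and 3.60 in males, a difference of 3.84 ± 0.40 (adjusted p = 6.7e-08). Slc22a18, its neighbour in the same imprinted cluster, stood at 4.29 against 3.20 (adjusted p = 3.2e-04), and Cdkn1c of that cluster at 4.81 against 4.25 (adjusted p = 0.023, a call that 4 of 16 alternatives ended). The zinc finger gene Plagl1 differed by 1.97 ± 0.22 (adjusted p = 2.5e-07) and the receptor gene Igf2r by 0.95 ± 0.17 (adjusted p = 2.7e-04). Mest, a paternally expressed gene, was the member that fell. It measured 4.56, 4.18 and 4.95 in females, against 6.81, 7.06 and 6.80 in males, a difference of -2.33 ± 0.23 (adjusted p = 2.7e-08). Allelic expression was not measured.

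Other genes among the 15 largest rises had no list in common. Lrrc34, which encodes a leucine-rich repeat protein, measured 6.85, 6.62 and 6.99 in females, against 4.07, 3.41 and 3.64 in males (difference 3.11 ± 0.23, adjusted p = 2.3e-10). The receptor tyrosine phosphatase gene Ptprj measured 6.63, 6.87 and 6.94 against 4.35, 4.28 and 4.38 (2.48 ± 0.29, adjusted p = 6.0e-07). The hormone gene secretin, Sct, stood at 6.34 against 3.91 (adjusted p = 6.2e-08), and the growth factor gene midkine, Mdk, at 7.18 against 4.85 (adjusted p = 5.0e-08). For each of these genes the male arrays lay below all female arrays by at least 1 log2 unit. Nr6a1, an orphan nuclear receptor known to repress Pou5f1, stood at 6.21 against 4.10 (adjusted p = 1.9e-08). The autophagy receptor gene Calcoco2 stood at 4.64 against 2.48 (adjusted p = 1.9e-07) and the cation channel gene Trpc1 at 5.34 against 3.24 (adjusted p = 6.9e-07).

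On the male side, genes of spermatogenic fate were lower in females where they differed. Of 11 tested none was higher in females than in males, 4 were lower and 7 did not pass (median -0.20). Nanos2 measured 2.14, 2.28 and 2.35 in females, against 3.71, 5.13 and 5.44 in males. Female arrays lay near the 40th percentile of the array, and the first male array was well below the other two. The measured difference was -2.50 ± 0.26 (adjusted p = 7.1e-08). Hesx1, a homeobox repressor gene, measured 1.77, 1.68 and 1.69 in females, against 3.86, 4.93 and 3.87 in males, a difference of -2.50 ± 0.18 (adjusted p = 9.7e-11). The zinc finger genes Bnc2 and Bnc1, of the basonuclin family, stood at 4.02 against 6.59 (adjusted p = 1.8e-07) and 2.86 against 4.15 (adjusted p = 1.4e-04). Dnd1, the partner of NANOS2, did not pass (5.56 against 5.65), nor did Piwil4 (2.75 against 2.95), a nuclear piRNA factor of later male germ cells. Dnmt3l was removed by the filter on low signal.

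The Nodal pathway was lower in females in its ligand, co-receptor and targets. Of 13 genes tested none rose, 5 fell and 8 did not pass (median -0.23). Lefty1, a Nodal target that encodes a secreted Nodal antagonist, measured 3.02, 3.23 and 2.85 in females, against 6.72, 6.78 and 6.80 in males. The difference was -3.73 ± 0.34 (adjusted p = 8.3e-09). Tdgf1, the Nodal co-receptor Cripto, measured 1.89, 2.70 and 2.40 in females, against 6.32, 5.64 and 6.09 in males, a difference of -3.69 ± 0.39 (adjusted p = 1.3e-07). Neither gene came near overlap. Lefty2 measured 2.47, 2.09 and 2.57 against 4.68, 4.68 and 4.99 (-2.41 ± 0.37, adjusted p = 3.1e-05), and the homeobox gene Otx2 measured 2.79, 2.65 and 2.58 against 4.98, 5.52 and 4.79 (-2.43 ± 0.23, adjusted p = 1.6e-08). Nodal itself stood at 3.61 ± 0.166 in females and 4.80 ± 0.26 in males (SD, n = 3 each; adjusted p = 1.0e-05). The receptor and Smad genes of the list were among the 8 that did not pass.

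FGF response genes followed the same direction. Of 14 tested 1 rose, 7 fell and 6 did not pass (median -0.57). The transcription factor gene Etv1 measured 3.61, 2.63 and 3.01 in females, against 5.23, 5.17 and 5.21 in males, a difference of -2.12 ± 0.29 (adjusted p = 6.9e-06). The feedback phosphatase genes Dusp6 (3.72 against 5.07, adjusted p = 7.6e-05) and Dusp4 (2.96 against 3.82, adjusted p = 2.9e-04) also fell. The receptors that were called moved in opposite directions, and Fgfr1 and Fgfr4 did not pass. Fgfr2 stood at 3.80 against 5.17 (adjusted p = 1.5e-06), while Fgfr3 stood at 4.63 against 3.09 (adjusted p = 1.1e-06).

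Mgst2, a microsomal glutathione transferase gene, had the largest fall of all. It measured 3.27, 3.11 and 3.43 in females, against 7.19, 7.24 and 7.34 in males, a difference of -3.99 ± 0.37 (adjusted p = 1.2e-08). Dgka, a diacylglycerol kinase gene, measured 3.03, 3.41 and 3.26 against 6.11, 6.68 and 6.43 (-3.18 ± 0.26, adjusted p = 8.0e-10). Pmaip1, which encodes the cell death protein NOXA, measured 3.37, 2.78 and 3.11 against 5.44, 6.35 and 6.76 (-3.10 ± 0.28, adjusted p = 6.2e-09). It was the one call among 17 apoptosis genes, whose median was -0.02. Cathepsin W, Ctsw, stood at 2.31 against 4.85 (adjusted p = 6.5e-10), the cell-surface proteoglycan gene Sdc4 at 6.04 against 8.58 (adjusted p = 5.0e-08), the PDZ and LIM domain gene Pdlim3 at 3.79 against 6.25 (adjusted p = 9.6e-10) and the amino acid transporter gene Slc38a2 at 4.54 against 6.88 (adjusted p = 6.8e-11). Defb19, a beta-defensin gene, measured 2.44, 2.11 and 2.36 in females, against 4.67, 3.60 and 5.73 in males (adjusted p = 4.5e-05). Its male values ran in the order of the testis supporting markers Ptgds (3.72, 2.85 and 4.59) and Amh (3.46, 2.24 and 3.83). Cst9 (4.24, 3.24 and 3.77) was also lowest on the second male array, whereas Nanos2 was lowest on the first. The part of those markers in the male-high results was not tested.

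Of 24 pluripotency genes tested, which early germ cells share with embryonic stem cells, 1 rose in females (Lin28a), 9 fell and 14 did not pass (median -0.44). L1td1, an RNA-binding gene, measured 4.41, 3.81 and 3.64 in females, against 6.17, 5.63 and 5.58 in males, a difference of -1.84 ± 0.20 (adjusted p = 1.7e-07). Tcl1 stood at 5.67 against 7.12 (adjusted p = 8.8e-06), Utf1 at 5.41 against 6.61 (adjusted p = 8.8e-06) and Nanog at 6.54 against 7.51 (adjusted p = 0.0011). The core factors Sox2 and Pou5f1 did not pass. Sox2 stood at 5.58 against 5.60 (adjusted p = 0.95), and Pou5f1 stood at 8.93 against 9.34 (adjusted p = 0.070), below the male arrays on all 3 female arrays but short of the threshold. The sort used a Pou5f1 reporter, so cells were in part chosen by the activity of that gene.

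Early germ cell genes went both ways, with 4 of 14 higher, 5 lower and 5 not past (median -0.16). Dppa3, a maternal factor that guards methylated DNA, measured 8.40, 8.23 and 8.51 in females, against 9.48, 9.65 and 9.39 in males (difference -1.13 ± 0.15, adjusted p = 2.4e-06). At E11.5 it had stood at 8.45 in females and 8.46 in males, close to the E13.5 female level. At E12.5 it stood above that level in both sexes, at 9.04 in females and 9.17 in males. Nanos3, needed for germ cell survival, stood at 5.40 against 6.58 (adjusted p = 5.6e-04), the DNA demethylase gene Tet1 at 6.83 against 7.74 (adjusted p = 3.0e-04) and Prdm1 at 4.77 against 5.40 (adjusted p = 0.0032). Alkaline phosphatase, Alpl, the classic stain for these cells, was higher in females, with 6.18 against 4.90 (adjusted p = 0.0033), as was Fut4, which makes the SSEA1 antigen (3.41 against 2.22, adjusted p = 8.3e-04). The receptor gene Kit stood at 7.29 against 6.83 (adjusted p = 0.026, a call that 3 of 16 alternatives ended).

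Genes of the G1-S transition differed in both directions. Of 18 G1-S genes 3 rose, 4 fell and 11 did not pass (median -0.10). Ccnd1, cyclin D1, measured 5.71, 5.38 and 5.68 in females, against 3.67, 3.87 and 3.44 in males, a difference of 1.93 ± 0.16 (adjusted p = 1.4e-09). Its kinases fell, with Cdk4 at 7.50 against 8.77 (adjusted p = 6.2e-08) and Cdk6 at 4.27 against 5.65 (adjusted p = 0.0019). The inhibitor gene Cdkn2d, p19, stood at 5.87 against 4.58 (adjusted p = 5.6e-05). Cdkn1b, p27, the inhibitor linked to male arrest, measured 2.94, 3.25 and 3.20 in females, against 4.95, 5.05 and 4.20 in males (-1.61 ± 0.43, adjusted p = 0.0095; without the second male array, adjusted p = 0.052). Ccnd3 did not pass (4.99 against 5.22). Of 34 proliferation genes none rose, 5 fell and 29 did not pass (median -0.14). Only 1 of the 5 calls held in every alternative, that of Bub1b (5.86 against 6.49, adjusted p = 0.0028). The mitotic kinase gene Aurkb was the one with the largest difference, at 5.55 against 6.79 (adjusted p = 0.015; without the second female array, adjusted p = 0.066).

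Glycolysis genes fell more often than they rose, with 2 of 17 higher, 5 lower and 10 not past (median -0.21). Slc2a1, the glucose transporter GLUT1, measured 5.37, 5.64 and 5.11 in females, against 6.97, 7.22 and 7.21 in males, a difference of -1.76 ± 0.18 (adjusted p = 4.7e-08). Pgam1 stood at 6.39 against 7.36 (adjusted p = 0.0019) and Pkm at 7.76 against 8.41 (adjusted p = 0.0036). The lactate dehydrogenase genes differed in opposite directions, Ldha with 6.45 against 5.12 (adjusted p = 3.9e-04) and Ldhb with 7.76 against 8.61 (adjusted p = 0.0082, a call that 3 of 16 alternatives ended). Of 23 genes of germline licensing and the piRNA pathway 3 rose, 2 fell and 18 did not pass (median 0.15), among them the tudor genes Tdrd7 (5.69 against 4.73, adjusted p = 0.0021), Tdrd5 (4.81 against 6.29, adjusted p = 1.3e-04) and Tdrd12 (4.42 against 5.39, adjusted p = 0.0017).

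Most genes of the later oocyte programme were at low signal in both sexes. Of 13 genes tested 2 rose, 1 fell and 10 did not pass (median -0.01), and 8 of the 13 had both group means under 3. Figla, which switches on zona pellucida genes, measured 3.37, 3.62 and 2.94 in females, against 2.56, 2.65 and 2.90 in males and did not pass (adjusted p = 0.10). Ybx2, an RNA-binding gene of germ cells, stood at 5.47 against 4.72 (adjusted p = 0.0019) and Sohlh2 at 6.08 against 5.52 (adjusted p = 0.017, a call that 2 of 16 alternatives ended). Ooep, a component of the maternal complex of eggs, was lower in females, at 5.15 against 6.48 (adjusted p = 7.4e-05). Of 14 genes of DNA methylation 1 rose, 1 fell and 12 did not pass (median -0.07), near the shares over all autosomal genes. Of 13 genes of the immediate early and dissociation response none rose, 2 fell (Ier3 and Zfp36, both with group means of 3.10 or less) and 11 did not pass (median -0.10).

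**Figure D3:**
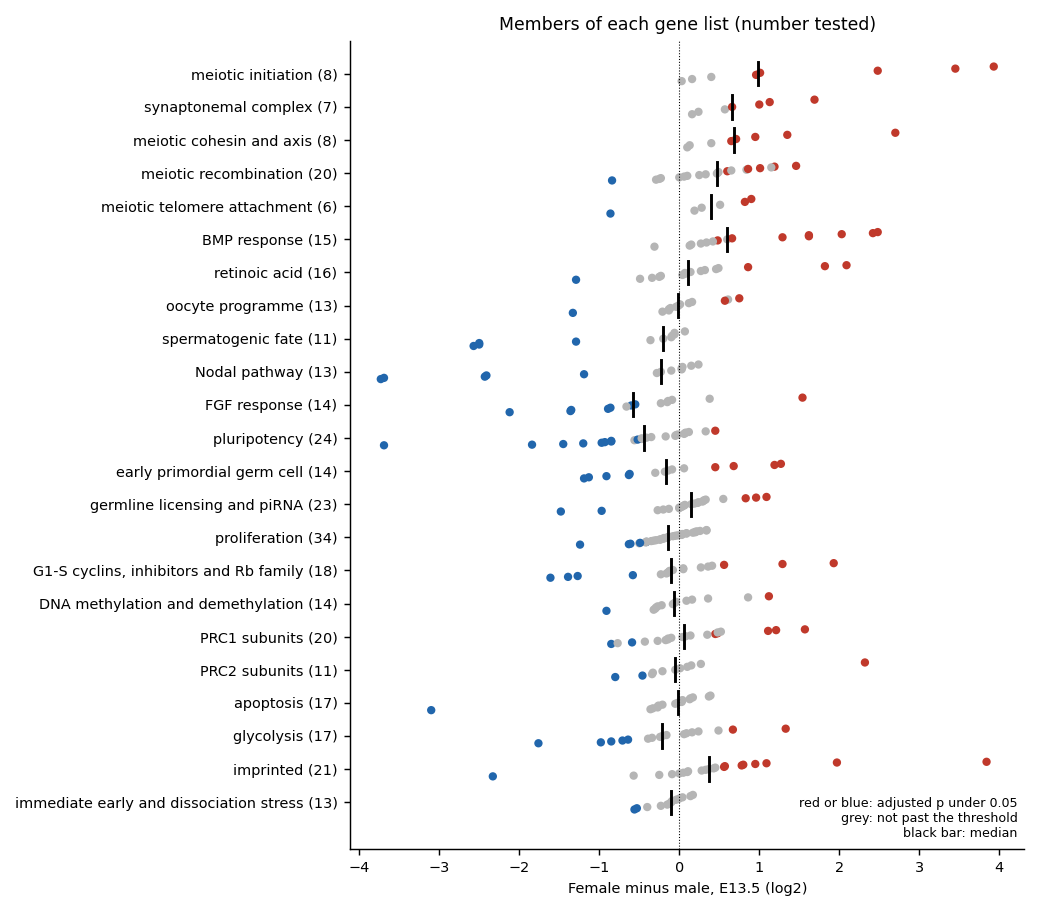
Female minus male difference at E13.5 in log2 units (x axis) for each tested member of 23 gene lists (rows), coloured where it passed the threshold, with the median of each list as a bar. The meiotic and BMP lists lie mainly to the right, the Nodal, FGF and pluripotency lists mainly to the left, and several lists hold members far out on both sides.

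The earlier stages show when these differences were present. At E11.5, 20 autosomal genes (0.137%) differed between the sexes, 5 higher and 15 lower in females, against 1186 at an unadjusted p under 0.05. After quantile normalization the split was 10 and 8, and without the second female or the second male array there was no call. Of the 20, 9 were called in the same direction at E13.5. Calcoco2 was among them, with 4.10 in females and 2.93 in males at E11.5, and so was Ctsw, with 2.20 and 3.11. At E12.5, 571 genes were higher in females (3.90%) and 2218 lower (15.1%). The E12.5 female arrays stood apart, with a mean r of 0.964 to 0.970 within the group, and the split moved to 1008 and 1294 with quantile normalization. A fit of the 6 E12.5 arrays alone made 163 and 937 calls. Of the 1060 genes higher at E13.5, 163 were also higher at E12.5 (15.4% of the E13.5 genes and 28.5% of the 571), and 50 were lower there. Of the 1249 lower at E13.5, 667 were also lower at E12.5 (53.4% and 30.1% of the 2218), and 8 were higher there.

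The female-male difference changed between E12.5 and E13.5 for 930 genes (6.35%), up for 732 and down for 198, or 404 and 342 with quantile normalization. Stra8 was at 2.79 in females and 2.23 in males at E12.5 (adjusted p = 0.29), and its difference grew by 3.36 ± 0.50 (adjusted p = 1.5e-04). Meioc stood at 2.35 and 1.81 (adjusted p = 0.18) and grew by 2.91 ± 0.39 (adjusted p = 3.9e-05). Ptprj and Trpc1 had the same course, with increases of 2.05 ± 0.41 (adjusted p = 0.0032) and 2.05 ± 0.35 (adjusted p = 7.6e-04). On the male side, Nanos2 was at 2.40 in females and 2.76 in males at E12.5 (adjusted p = 0.37), and its difference moved by -2.14 ± 0.37 (adjusted p = 7.3e-04). Hesx1 moved by -2.27 ± 0.25 (adjusted p = 3.9e-06). All of these genes were named by their E13.5 difference, which enters the change, so a change in that direction was favoured.

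A second group already differed at E12.5. Zglp1 stood at 5.51 in females and 3.75 in males at that stage (adjusted p = 2.8e-06), Gata2 at 4.94 and 3.17 (adjusted p = 1.1e-07), Phlda2 at 7.35 and 3.93 (adjusted p = 6.9e-07), Lefty1 at 3.19 and 6.47 (adjusted p = 1.2e-07) and Dgka at 2.83 and 5.48 (adjusted p = 5.9e-08). For these genes the test of a change from E12.5 to E13.5 did not pass, with adjusted p between 0.13 and 0.74. At E11.5 none of these named genes passed: Zglp1 stood at 3.25 in females and 3.14 in males, and Lefty1 at 4.37 and 5.72.

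**Figure D4:**
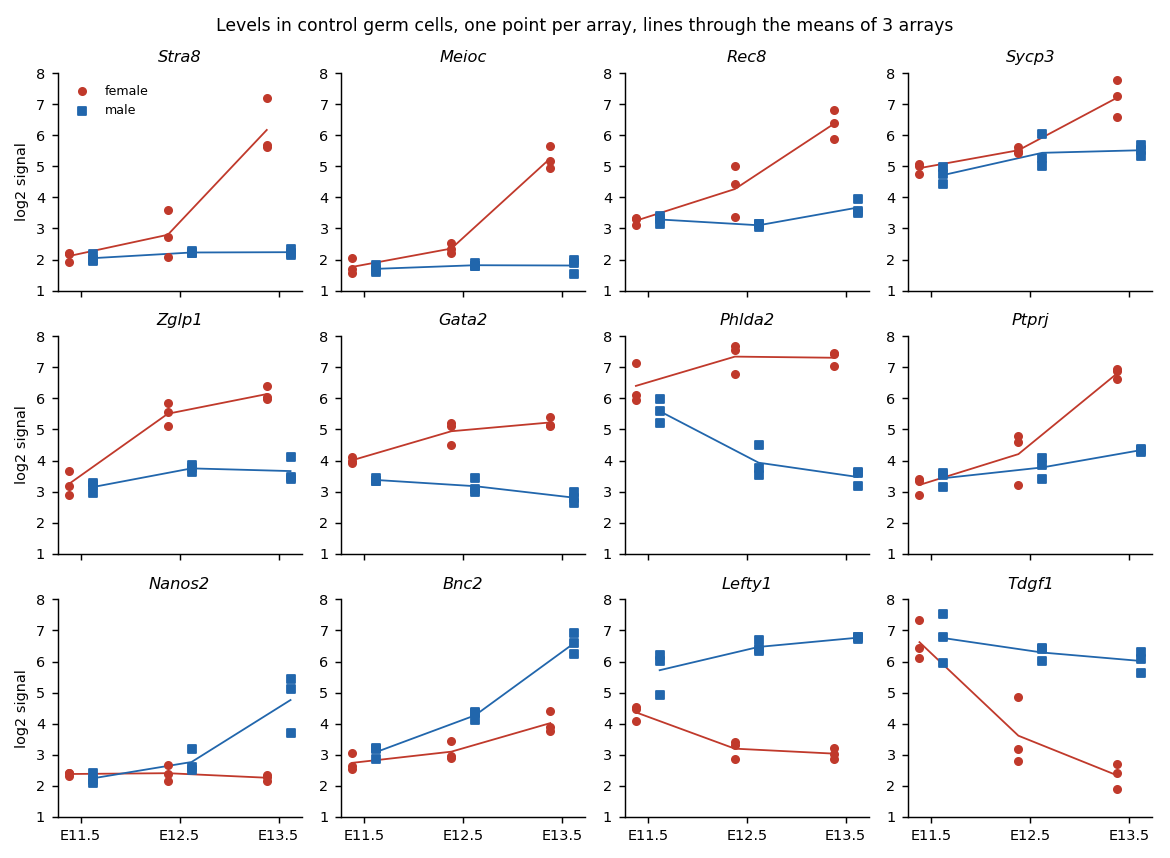
Log2 signal in control germ cells at E11.5, E12.5 and E13.5 for 12 genes, with a point for each array (female circles left of male squares) and lines through the means of 3 arrays. Stra8, Meioc and Ptprj separate mainly at E13.5, as does Nanos2 in the other direction, whereas Zglp1, Gata2, Phlda2, Lefty1 and Tdgf1 are apart at E12.5.

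Set against the mean of the 6 control arrays at E11.5, the sexes departed by different amounts. Of the 217 genes higher in females by at least 1 log2 unit, the female mean was the farther from the E11.5 level in 176 (81.1%), and 204 were above that level in females and 92 in males. The median departure was 1.23 in females and -0.11 in males. Of the 258 genes lower in females by at least 1 log2 unit, the female mean was the farther in 171 (66.3%). For 238 of them the female mean lay below the E11.5 level, and for 175 the male mean lay above it, with median departures of -0.98 in females and 0.30 in males. Tdgf1 is of the kind lost in females, with E11.5 means of 6.62 in females and 6.76 in males. Pmaip1 and Bnc2 are of the kind gained in males, with E11.5 means of 2.88 and 3.15 for the first and 2.74 and 3.08 for the second in the order female, male. Phlda2 and Lrrc34 are exceptions on the female side, since the males had moved farther, down from E11.5 means of 6.40 and 5.59 for Phlda2 and 6.86 and 6.31 for Lrrc34. The E11.5 arrays enter both departures, so these counts are a description.

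**Figure D5:**
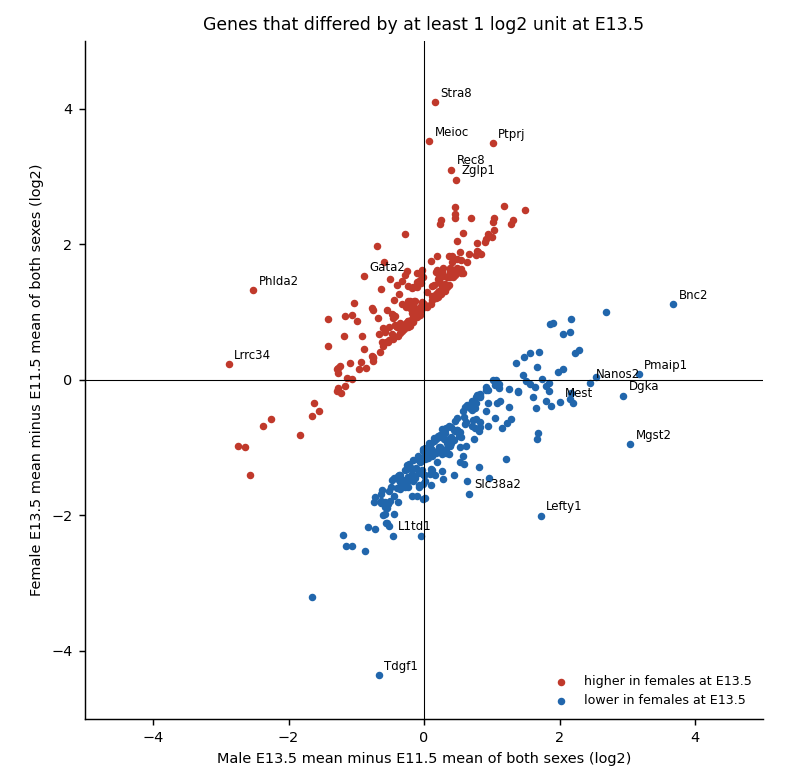
Distance of the E13.5 mean from the E11.5 mean of both sexes, in females (y axis) and males (x axis), in log2 units, for 217 genes higher (red) and 258 genes lower (blue) in females by at least 1 log2 unit at E13.5. Stra8 and Meioc lie high near the vertical zero line and Tdgf1 low, while Bnc2, Pmaip1, Dgka and Mgst2 lie far to the right.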

How the data were processed

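The authors deposited log2 expression values for 34760 Affymetrix probe sets on 30 arrays, made with R 2.15 and affy 1.36 per the submitters' processing notes. For background correction, summarisation and genome build, the method was not given in the sources used here. The number of arrays limits the precision, and levels of different genes were not compared, since probe sets differ in response. Probe sets were named through GEO's platform annotation, updated by Entrez identifier with the RefSeq GRCm38.p6 table: 21640 had 1 symbol, 1321 several and 11799 none listed. The probe set with the highest mean over all 30 arrays stood for a gene (954 genes had over 1). Genes above the 40th percentile of the array on at least 3 of the 30 arrays were kept (15180 of 19937). Columns of other samples not used numbered 0.

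All 30 arrays, in 10 groups of 3, were fitted with limma 3.58.1 in R 4.3.3 (20 residual degrees of freedom, Benjamini-Hochberg adjustment over 15180 genes, threshold 0.05), and autosomal genes are reported. The script was tested on simulated data. Alternatives covered the arrays fitted, array weights, trend, quantile normalization, probe set choice, filters, a replicate block and leaving out each array. Members and gene lists were chosen with earlier results of these data known. Genes were named by size, by list (up to 4 per direction with the smallest p) and from a fixed set. By size, they were the 15 largest differences each way that held in all alternatives and whose arrays did not overlap between the sexes. Predicted-gene, clone and small RNA symbols were left out of that choice. Non-overlap of the genes named by size was thus set by the rule. Ezh2, Ring1, Rnf2, Smad6, Smad7, Sox9, Foxl2, Ythdc2 and Spata22 were named outside these rules, after their values were seen.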

Additional observations from a re-analysis of the deposited data

Results flagged for a closer look

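For 37 of the 126 genes named by rule, the female-male difference itself changed between E12.5 and E13.5 in limma's interaction test. The change was upward for 22 and downward for 15. Over all autosomal genes tested the share was 6.35%. Many of the named genes were chosen by their difference on the same E13.5 arrays, which enter the change. A change in that direction was thus favoured by the choice, and the count is no separate support. The changes, in log2 units of the E13.5 minus the E12.5 difference, were positive for the meiotic genes Stra8 (3.36), Meioc (2.91), M1ap (1.89), Sycp3 (1.61), Rec8 (1.53), Rbm46 (1.38) and Zcwpw1 (0.89), and for Trpc1 and Ptprj at 2.05 each. Upward changes were also measured for the cell cycle genes Cdkn2d (1.69) and Ccnd1 (0.93), the Polycomb genes Phf19 (1.45) and Cbx8 (0.94), the retinoid genes Crabp2 (1.43) and Rdh10 (0.97), and for Tdrd7 (1.62), Ldha (1.38), Fgfr3 (1.26), Lrrc34 (1.21), Igf2r (0.94), Bmp2 (0.85) and Kit (0.73). Downward changes were measured for Cdkn1b (-2.75), Hesx1 (-2.27), Nanos2 (-2.14), Ctsw (-1.93), Utf1 (-1.56), Otx2 (-1.42), Bnc2 (-1.4), Slc2a1 (-1.39), Pdlim3 (-1.33), Mest (-1.21), Sdc4 (-1.19), Nanog (-1.17), Dppa3 (-1), Slc38a2 (-0.82) and Dusp4 (-0.77).

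For Cdkn1b the means lay in opposite order at the 2 stages, but the E12.5 difference did not pass and the change did not hold in every alternative fit. At E12.5 its log2 signal averaged 4.99 in females and 3.85 in males (adjusted p = 0.064), whereas at E13.5 it averaged 3.13 in females and 4.74 in males. The change passed the threshold in every alternative fit for 19 of the 37 genes. The E12.5 female arrays had the widest spread of all groups, and their part in these changes was not tested.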

How the results depend on the processing

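No named gene called at E13.5 in the main fit or in an alternative reversed its direction in the 16 alternatives. Sign changes of genes called in neither fit were not counted. Of 2016 pairs of a named gene and an alternative, 1917 stayed on the same side of the threshold, 92 lost a call and 7 gained one, and 90 of the 116 called genes kept it throughout. The E13.5 count of 2309 became 2915 with the compared arrays alone, 3059 without the E12.5 female arrays, 3226 with array weights, 475 with a minimum of 1 log2 unit and 1618 to 1866 with 1 array left out. The E12.5 count of 2789 became 1100 with the compared arrays alone, 1684 with array weights and 2039 to 3002 with 1 array left out. The E11.5 count of 20 became 56 without the E12.5 female arrays, 58 with array weights and 0 to 11 with 1 array left out. The count of 930 changed differences became 560 with the compared arrays alone and 506 to 1252 with 1 array left out. Quantile normalization gave 1113 higher and 1165 lower at E13.5. With the replicate number as a block the counts were 2861 at E13.5, 774 at E12.5, 43 at E11.5 and 477 for the changed differences. Same-numbered E13.5 female and male arrays correlated at 0.0487, -0.0141 and 0.0171 in their deviations. Differently numbered ones correlated at -0.0631 to 0.0468. With so few arrays in a group, these values cannot decide whether same-numbered samples were paired. List medians near 0 changed sign in at least 1 alternative for the oocyte, G1-S, PRC1, PRC2 and apoptosis lists and for 5 marker lists. The cause was not tested.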

Other observations

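Some gene families, picked by symbol after their values were seen, had more members lower than higher in females at E13.5. Apart from the Nop genes, most members of each did not pass. The counts are a description, beside 7.24% of all autosomal genes higher and 8.53% lower. Of 8 Nop genes, most of which act in nucleolar RNA processing, none was higher in females and 5 were lower (median -0.42 log2 units), and of 9 Utp genes, of the small-subunit processome, none was higher and 4 were lower (median -0.53). Utp6 measured 4.04, 3.99 and 3.85 in females, against 5.48, 5.30 and 5.37 in males. Nop2, an RNA methyltransferase gene, measured 4.78, 4.66 and 4.18 in females, against 5.74, 5.65 and 5.87 in males. The arrays of the sexes did not overlap for either gene. Of 9 exosome genes named Exosc, 1 was higher and 3 were lower (median -0.34), and of 34 Ddx helicase genes none was higher and 10 were lower (median -0.21). Over all 14645 autosomal genes the median was 0.0025. Large families gave other splits, with 25 higher and 26 lower of 280 Slc transporter genes and 17 higher and 25 lower of 303 Zfp genes.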
